A study of Drosophila melanogaster with 2 samples.

Results

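Pericentric heterochromatin and chromosome 4 of Drosophila melanogaster held 623 of the 30000 peaks called for the transcription factor Gem in whole embryos. These peaks were chosen by position alone, with no measured value: all 316 peaks with a summit on chromosome 4, and 307 peaks with a summit above 22000000 on 2L, above 22900000 on 3L, below 4200000 on 3R or above 22400000 on X, in dm6. Both sets together are called heterochromatic peaks. By arm the pericentric peaks numbered 73 on 2L, 99 on 3L, 45 on 3R and 90 on X. They were set beside the 24933 pooled peaks on the remainder of the arms 2L, 3L, 3R and X, and the other 4444 pooled peaks were not used for the comparison.

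The embryos were of mixed sex and aged 0 to 24 h, of a transgenic line stably expressing gem with GFP fused to its C-terminal end, and the chromatin was precipitated with an antibody to GFP after sonication to 200 to 800 bp. There was 1 group of 2 samples, biological replicates 1 and 4, with no second genotype, treatment or stage, and nothing in the labels says that the endogenous gem gene was removed. Peaks had been called on each replicate and on both together, each against a control alignment, and 11045 peaks formed the list that passed an irreproducible discovery rate (IDR) threshold, which keeps peaks whose ranks hold between replicates. Every value is an average over all cells and stages of the embryo, so fewer bound cells and weaker binding per cell cannot be told apart.

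Heterochromatin is the compact part of the genome that stays condensed through the cell cycle. Around the centromeres it is made largely of satellite repeats and transposable elements, with scattered genes among them, and it carries histone H3 methylated at lysine 9 and the protein HP1 that binds this mark. Chromosome 4 of Drosophila, the dot chromosome, has the same protein and mark over most of its length and is rich in transposable elements, yet its genes are closely packed and many are expressed. Gem (gemini) is related to the CP2 and Grainyhead proteins, DNA-binding factors that act as dimers or tetramers. Genes such as light (lt) need a heterochromatic setting for normal expression and are the classic examples of genes that work inside heterochromatin.

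The assembled sequence showed the repeat content that the regions are named for. Soft-masked sequence made up 40.4% of the pericentric regions and 28.1% of chromosome 4. Annotated transposable elements covered 15.4% of the pericentric regions, 25.1% of chromosome 4 and 4.01% of the remaining arms. A 31-base word that occurs once in the assembly started at 40.8% of pericentric positions, at 84.2% of positions on chromosome 4 and at 94.4% of positions on the remaining arms. Word uniqueness stands here for how much of a region short reads can be placed in, since neither the read length nor the treatment of reads with several placements is stated. No histone mark or HP1 profile was measured in this series.

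The DNA under 12 of the summits named below is shown first because its base composition recurs throughout the results. They are a selection from each region and not the 12 strongest, and the strongest of all, at Cals, is left out because it lies in a UTR. Each sequence is the 61 bases around the summit on the forward strand of release 6 (dm6) from RefSeq, and capitals mark runs of 6 or more A or T. The first 4 lie on chromosome 4, namely PlexA at chr4:1027266-1027326, Sox102F at chr4:807565-807625, zfh2 at chr4:497855-497915 and lncRNA:CR43437 at chr4:424786-424846. They are followed by lt at chr2L:22924671-22924731, CG12768 at chr3L:22910027-22910087, mRpS5 at chr3L:24537838-24537898, CG12581 at chr3R:4179181-4179241, Myo81F at chr3R:566850-566910 and l(1)G0196 at chrX:22491232-22491292. The last 2 are summits inside copies of the transposable element INE-1, upstream of stnB at chrX:23004984-23005044 and in an intron of sv at chr4:1093644-1093704.
PlexA: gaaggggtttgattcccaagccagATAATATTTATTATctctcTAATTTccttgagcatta
Sox102F: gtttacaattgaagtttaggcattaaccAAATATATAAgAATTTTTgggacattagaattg
zfh2: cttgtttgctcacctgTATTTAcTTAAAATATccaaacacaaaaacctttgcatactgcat
lncRNA:CR43437: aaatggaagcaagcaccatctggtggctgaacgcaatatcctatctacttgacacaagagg
lt: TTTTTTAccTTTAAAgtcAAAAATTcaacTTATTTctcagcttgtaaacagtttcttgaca
CG12768: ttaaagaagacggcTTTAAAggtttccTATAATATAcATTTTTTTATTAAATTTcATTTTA
mRpS5: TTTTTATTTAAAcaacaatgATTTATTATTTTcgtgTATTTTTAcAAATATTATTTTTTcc
CG12581: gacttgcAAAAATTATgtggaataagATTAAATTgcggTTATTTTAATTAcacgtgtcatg
Myo81F: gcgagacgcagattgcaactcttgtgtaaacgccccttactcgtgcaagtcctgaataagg
l(1)G0196: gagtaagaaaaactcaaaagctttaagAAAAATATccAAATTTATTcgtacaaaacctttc
stnB: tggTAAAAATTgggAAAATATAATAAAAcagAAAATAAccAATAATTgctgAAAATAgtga
sv: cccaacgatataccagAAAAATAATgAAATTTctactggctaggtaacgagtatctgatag

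Runs of A and T lay in the windows of 10 of these 12 summits, and in 21 of the 24 windows of named summits and summits in transposable elements that held no UTR bases. Such runs were not counted in flanks or in other sequence of the regions, so these counts are no result particular to summits. The window at mRpS5, which encodes a protein of the mitochondrial ribosome, had 14.8% G+C, the window at CG12768 had 19.7% and the window at lt had 26.2%. The windows at lncRNA:CR43437, with 45.9% G+C, and at Myo81F, a myosin gene, with 50.8%, held no such run. The short site CTGG that is known for CP2 proteins was present in the PlexA, lncRNA:CR43437 and sv windows and absent from the other windows shown.

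Peaks were scarce in pericentric heterochromatin and about as dense on chromosome 4 as on the remaining arms. Chromosome 4 had 237 pooled peaks per Mb of assembled sequence, the pericentric regions 25.7 and the remaining arms 262, so that the remaining arms were 10.2-fold higher than the pericentric regions and 1.10-fold higher than chromosome 4. Among the remaining arms taken singly, the density ranged from 229 on 3R to 301 on 3L. Within pericentric heterochromatin X had 78.9 peaks per Mb, 2L 48.2, 3L 19.4 and 3R 10.8, all below every remaining arm. Counted per Mb of sequence with unique 31-base words, chromosome 4 had 282 peaks, the pericentric regions 63.1 and the remaining arms 278.

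The replicates differed in which of these regions had more peaks, although each list was 30000 peaks long. Chromosome 4 had 303 peaks in replicate 1 and 377 in replicate 4, or 228 and 283 per Mb. The pericentric regions had 338 peaks in replicate 1 and 229 in replicate 4, or 28.3 and 19.2 per Mb. The remaining arms had 263 and 260 per Mb, so chromosome 4 stood below them in replicate 1 and above them in replicate 4, and its difference from them was smaller than the spread between replicates. The pericentric regions were lower than the remaining arms in both, with the remaining arms 9.27-fold higher in replicate 1 and 13.5-fold higher in replicate 4. In the IDR list the densities were 48.8 peaks per Mb on chromosome 4, 4.69 in the pericentric regions and 97 on the remaining arms.

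**Figure D1:**
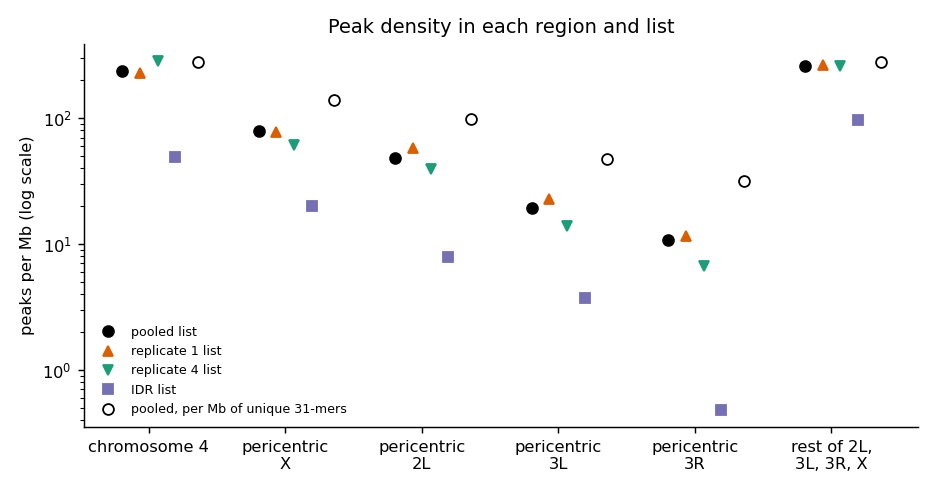
Peaks per Mb of assembled sequence (log scale) in chromosome 4, each pericentric region and the remaining arms, with filled symbols for the pooled, replicate 1, replicate 4 and IDR lists and open circles for the pooled list per Mb of unique 31-base words. Chromosome 4 lies at 237 and the remaining arms at 262 in the pooled list, and the pericentric regions run from 78.9 on X to 10.8 on 3R.

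On 2L, 3L and 3R both the peak density and the share of unique sequence were lower in the first bin past the limit than in the last bin before it. On 3R, the first 500 kb past the limit had 38 peaks, or 76.3 per Mb, the next 500 kb had 8 per Mb, and no later bin had more than 2 per Mb. On 2L the first 3 bins had 70.0, 42.0 and 32.0 per Mb, against 202 in the 500 kb before the limit. On 3L the first bin had 54.0 per Mb and later bins between 0 and 32.0, with a last bin of 19. On X the order was different: the 500 kb before the limit held no pooled peak and had 10.8% unique words, while the first 500 kb past it had 118 peaks per Mb and 83.8% unique words. What the share of unique sequence does to the density was not tested.

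**Figure D2:**
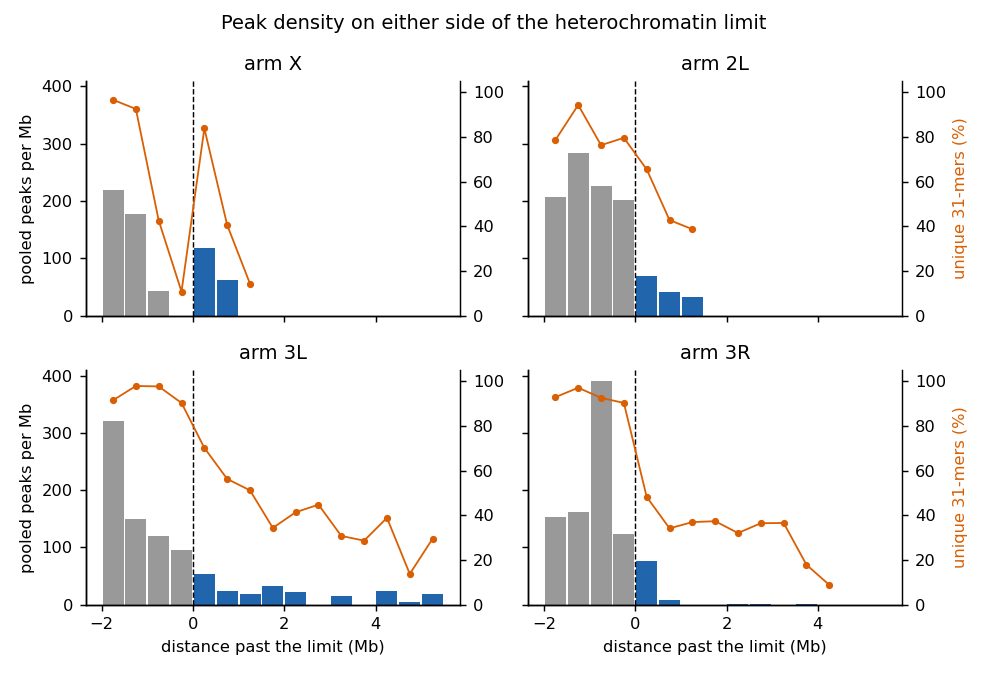
Pooled peaks per Mb in bins of 500 kb against the distance past the heterochromatin limit (Mb, dashed line at 0) on each arm, with grey bars for the remaining arm and blue bars for the pericentric region; the orange line is the percentage of unique 31-base words in the bin. Bins with less than 0.1 Mb of assembled sequence are left out. Bars and line are both lower past the limit on 2L, 3L and 3R, and on X the empty bin lies just before the limit.

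The peaks that sit on either side of each limit were as follows. On 3L the first peak inside, at chr3L:22909956-22910155, had a signal of 555 and lay 434 bp from the TSS of CG12768, and the nearest outside had 289 at slif. On 3R the first inside had 51.7 and the nearest outside 938. On 2L the values were 42.1 inside and 329 outside. On X the first peak inside, near CG14621, had 276, and the nearest outside lay at chrX:21634245-21634648 with 182, 1011 bp from the TSS of lncRNA:flam, the flamenco locus that gives rise to piRNAs. The limits therefore do not divide strong from weak peaks in the same way on every arm.

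Peaks in these regions were weaker than those on the remaining arms. Signal is the authors' own value for each peak, with a scaling that is not stated, and is compared here within a list. The median pooled signal was 79.9 on chromosome 4 and 75.4 in the pericentric regions, against 118 on the remaining arms, whose single-arm medians ran from 114 on 3L to 125 on 3R. In replicate 1 the medians were 53.6, 50.2 and 81.0, and in replicate 4 they were 31.2, 31.7 and 44.7, so both regions were below the remaining arms in each replicate, while the order of the 2 regions differed between the replicates. Of the pericentric regions X had the highest median, 88.1, and 3R the lowest, 63.8. Only 3 heterochromatic peaks ranked among the 1000 strongest pooled peaks and 19 among the 5000 strongest.

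The lower signal was present at promoters and away from them. A peak was called a promoter peak when its summit lay within 500 bp of an annotated transcription start site (TSS). The median signal of promoter peaks was 118 on chromosome 4, 126 in the pericentric regions and 189 on the remaining arms. The median of the other peaks, called distal, was 70.6, 64.8 and 107. Promoter peaks were thus 1.77-fold above distal peaks both in heterochromatin and on the remaining arms. In the IDR list this turned on chromosome 4, where 39 promoter peaks had a median of 285 and 26 distal peaks 356, a ratio of 0.801. In the pericentric regions the medians were 308 and 305, a ratio of 1.01. Both regions together had 288 and 341, a ratio of 0.845, with overlapping quartiles (225 to 391 and 260 to 443). The ratio on the remaining arms was 1.58. Among peaks whose 101-base window held unique 31-base words alone, the heterochromatic median was 0.668 of that on the remaining arms, against 0.659 over all peaks.

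Fewer of the heterochromatic peaks passed the thresholds that depend on signal. The IDR list held 19.4% of them (121 of 623, exact 95% interval 16.4 to 22.8%), against 37.0% of the peaks on the remaining arms. A q-value of at most 0.05 was reached by 36.1% (32.3 to 40.0%), against 55.2%. A summit within 100 bp in both replicates was found for 49.0% (45.0 to 53.0%), against 64.0%. The 4 remaining arms taken singly ran from 36.2 to 38.7% for the IDR list and from 62.2 to 65.8% for both replicates. Intervals cover counting error only, and overlapping peaks are not independent.

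At equal signal the difference in recovery was small over all heterochromatic peaks. The peaks were sorted by the signal quartiles of the remaining arms, at 63.2, 118 and 309. In the class of lowest signal 13% of heterochromatic peaks and 14.6% of the others had a summit in both replicates. The shares were 53.2 and 57.9% in the next class, 84.3 and 87.2% in the one above and 96.7 and 96.3% in the highest. The share on the remaining arms lay inside the interval of the heterochromatic share in all 4 classes. Taken alone, the pericentric peaks were lower in the second class, 45.5% (35.4 to 55.8%), an interval that does not hold the 57.9% of the remaining arms, while chromosome 4 had 60.4% (50.4 to 69.7%).

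Peaks seen in a single replicate were mostly those of replicate 1. On chromosome 4, 24.7% of pooled peaks were matched in replicate 1 alone and 15.5% in replicate 4 alone. In the pericentric regions these shares were 38.8 and 7.49%, and on the remaining arms 5368 and 2493 of 24933 peaks, the first being 21.5%. For the 305 peaks matched in both, Spearman's rho between the signals of the replicates was 0.76, against 0.88 for the 15961 on the remaining arms. The points of each correlation share the 2 libraries, and the pooled peaks were called on the same reads.

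**Figure D3:**
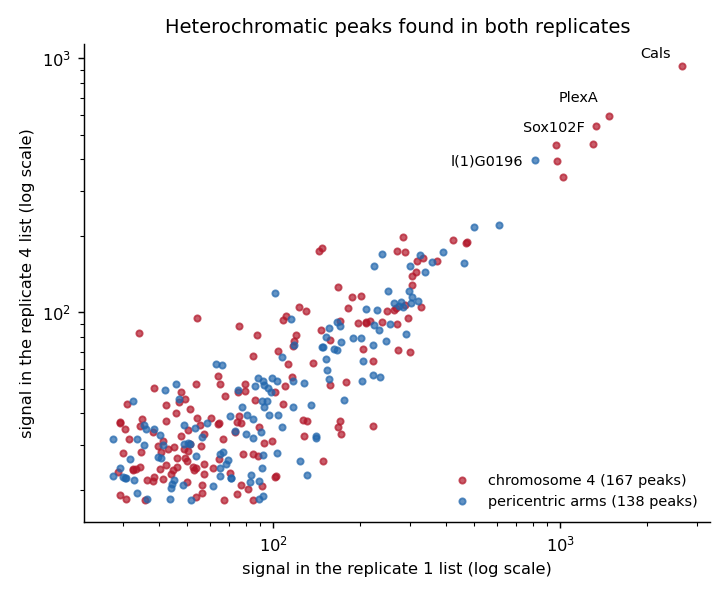
Signal in the replicate 1 list against signal in the replicate 4 list (both log scales) for the 305 heterochromatic peaks with a summit in both, red for chromosome 4 and blue for the pericentric arms. The strongest peaks are strongest in both replicates, with Cals at 2655 and 934, and weak peaks scatter more.

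The strongest heterochromatic peak lay at the end of Cals, which encodes the transmembrane protein calsyntenin, on chromosome 4. Its signal was 3587 in the pooled list, 2655 in replicate 1 and 934 in replicate 4, and it ranked 280 among all pooled peaks. The summit, at position 1113323 of chromosome 4, was in the 3′ UTR of Cals, 9642 bp from the nearest TSS, and 101 bases around it had 23.8% G+C. The neighbouring gene sv, which encodes a Pax2 protein of sense organs and eye, ends at position 1113317, so the peak is also at the end of sv.

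The next peaks on chromosome 4 had PlexA, Sox102F, zfh2 and lncRNA:CR43437 as the genes with the nearest TSS. The peak 195 bp upstream of PlexA, a receptor for semaphorins in axon guidance, had a pooled signal of 2069 and 1476 and 590 in replicates 1 and 4. The peak in Sox102F, which encodes an SoxD protein, lay 248 bp upstream of an internal TSS and had 1873, with 1330 and 540 in the replicates. The peak upstream of zfh2, a zinc finger homeodomain gene of wing and nervous system, was distal, 3925 bp from the TSS, with 1756 and 1297 and 461. A peak 1251 bp from the TSS of lncRNA:CR43437 had 1414, with 969 and 454 in the replicates. All 5 were in the IDR list, and their ranks in replicates 1 and 4 were nearest at PlexA, with 785 and 781, and farthest apart at lncRNA:CR43437, with 1523 and 1194.

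The pericentric X held the strongest peaks outside chromosome 4. In l(1)G0196 an intronic peak at an internal TSS had 1215, with 813 and 396 in the replicates, and a further peak in an exon of lncRNA:CR43493, within the span of the same gene, had 716. A peak with 834 lay in the overlapping introns of fog, the secreted ligand of gastrulation, and CG42346, 142 bp upstream of mir-2491. A peak 5584 bp from lncRNA:CR43962 had 618, and the peak in INE-1 upstream of stnB had 487. Each of the 5 had 100% unique 31-base words in its window.

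Named on 2L, 3L and 3R are the 5 strongest peaks of each arm with a summit in both replicates. Of these 15 peaks, 9 lay within 500 bp of a TSS. On 2L, where all 5 did, they were at lt, a subunit of the vesicle tethering complex that delivers cargo to lysosomes, with 384 (279 and 110 in replicates 1 and 4), at the ribosomal protein gene RpL5 with 384 (224 and 152), at CycK, a cyclin of transcription, with 375, at CG3651 with 320 and at Clamp, a zinc finger gene of dosage compensation, with 318. On 3L they were at CG12768 with 555, in introns of l(3)80Fg with 510 and of mRpS5 with 412, 1224 and 505 bp from the TSS, at lncRNA:CR46475 in an intron of nAChRalpha4 with 370, and at RpL10 with 366. On 3R they were weaker. There they lay in an intron of CG12581 with 221 and 132, upstream of Myo81F with 163, in an intron of Gfat1, an enzyme of hexosamine synthesis, with 141, and 39507 bp from CG41128 with 129, and the peak at Myo81F was the only one within 500 bp of a TSS. The peak of 221 was the only one of these 5 on 3R in the IDR list. The strongest peak of pericentric 3R, with 228, was also in the IDR list and lay 104 bp from a TSS of Alg-2. It was not matched in both replicates, so it is not among the 5.

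Heterochromatic peaks lay at promoters more often than those on the remaining arms, except on 3R. The share of promoter peaks was 33.2% on chromosome 4 (28.1 to 38.7%) and 32.6% in the pericentric regions (27.4 to 38.1%), against 21.3% on the remaining arms, where single arms ran from 20.2 to 22.8%. Pericentric 2L had 42.5%, 3L 35.4%, X 28.9% (19.8 to 39.4%) and 3R 17.8% (8 of 45, 8 to 32.1%), so the intervals on X and 3R hold the value of the remaining arms. Among IDR peaks the share was 62.0% in heterochromatin (75 of 121, 52.7 to 70.7%) and 28.9% on the remaining arms, where single arms ran from 26.3 to 31.5%. Distal summits in introns made up 37.2% of heterochromatic peaks and 49.5% of the others, and distal intergenic summits 22.2 and 24.7%. Promoter summits in introns or intergenic sequence are not in these shares. Of the distal peaks alone, introns held 232 of 418 in heterochromatin and 12346 of 19621 on the remaining arms. Promoter summits lay upstream of the TSS in 68.3% of cases in heterochromatin and in 70.5% elsewhere.

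The number of TSSs to be bound differs between the regions, so promoters were also counted from the side of the genes. Chromosome 4 has 137 TSSs per Mb and the pericentric regions 26.7, and per TSS the pooled peaks numbered 1.73, 0.962 and, on the remaining arms, 1.37. A pooled peak lay within 500 bp of 60.7% of the TSSs on chromosome 4 (111 of 183, 53.2 to 67.8%), of 40.4% in the pericentric regions (129 of 319, 35.0 to 46.0%) and of 34.5% on the remaining arms. Both replicates gave a higher share on chromosome 4, 59.0% in replicate 1 and 67.8% in replicate 4, than on the remaining arms, 34.0 and 37.7%. In the IDR list the shares were 25.7% (19.5 to 32.6%), 19.7% (15.5 to 24.5%) and 21.4%, so for these stronger peaks both intervals held the value of the remaining arms.

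Per gene the difference was larger. A gene was counted when any of its TSSs had a peak, so genes with more TSSs had more occasions to be counted. Chromosome 4 had 183 TSSs of all gene types beside 80 protein-coding genes, the pericentric regions 319 beside 131 and the remaining arms 18211 beside 10882. What this does to the shares per gene was not tested. Of the 80 protein-coding genes on chromosome 4, 65 had a pooled peak at a TSS, or 81.2% (71.0 to 89.1%), against 35.6% on the remaining arms, where single arms ran from 33.7 to 38.1%. The pericentric share was 51.9% (68 of 131, 43.0 to 60.7%), highest on 3L with 64.3% and lowest on X with 42.1%. In the IDR list chromosome 4 had 46.2% (37 of 80, 35.0 to 57.8%), the pericentric regions 26.7% (19.4 to 35.2%) and the remaining arms 25.3%. The pericentric share in the IDR list was therefore close to that of the remaining arms. Non-coding RNA genes had a pooled promoter peak in 15 of 30 cases on chromosome 4, 27.8% in the pericentric regions and 25.6% elsewhere.

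**Figure D4:**
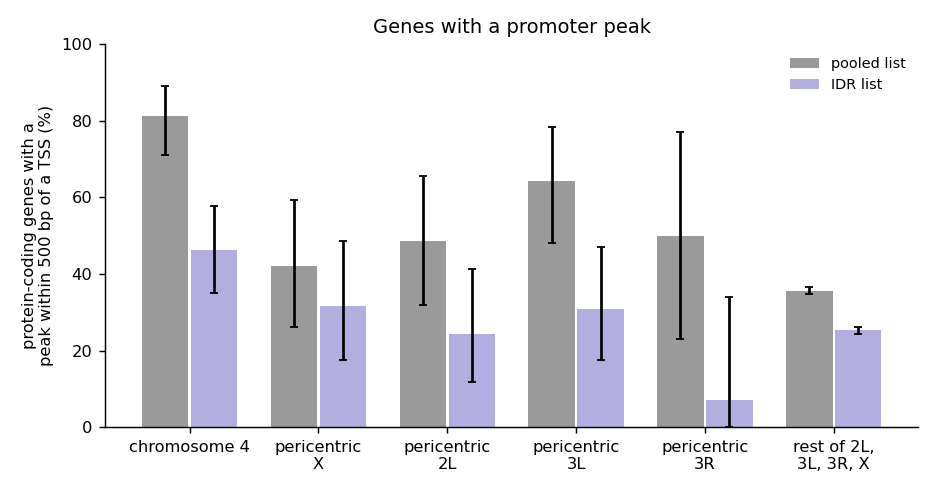
Percentage of protein-coding genes with a peak summit within 500 bp of a TSS in each region, for the pooled list (grey) and the IDR list (violet), with exact 95% intervals as error bars. Chromosome 4 stands at 81.2% in the pooled list and 46.2% in the IDR list, against 35.6 and 25.3% on the remaining arms.

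Of 13 listed transcription factor genes of chromosome 4, 10 had a pooled promoter peak and 4 an IDR promoter peak, where all its protein-coding genes had 65 and 37 of 80 (81.2 and 46.2%), so the counts are no result particular to these genes. The highest promoter signal was that of Sox102F, given above. Mitf, which controls lysosome genes, had 463 (317 and 159 in replicates 1 and 4), ey, the Pax6 gene of the eye, 285 (168 and 126), and pan, the TCF factor of Wingless signalling, 269 (171 and 92.3). Promoter peaks at pho, a DNA-binding Polycomb group protein, with 142, ci, the effector of Hedgehog signalling, with 136, and zfh2 with 110 had a summit in replicate 1 and none within 100 bp in replicate 4. The promoter of NfI had 113 and was found in both. No promoter peak was found for toy, the second Pax6 gene, for fd102C, a forkhead gene, or for sv, although sv had 10 peaks within its span, the strongest with 444, and toy had 2. The gene with the most peaks was pan, with 23 within its 44945 bp, a median signal of 59.7 and 2 of them in the IDR list.

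Among 16 genes of signalling, adhesion and synapse on chromosome 4, 13 had a promoter peak and 6 of these were in the IDR list, again beside 81.2 and 46.2% of all protein-coding genes there. After PlexA came lgs, a cofactor of Wingless signalling, with 463, Zyx, the zyxin gene of focal adhesions, with 334, Cadps, which acts in release of dense-core vesicles, with 281, the plexin gene PlexB with 232, and myo, which encodes a TGF-beta ligand, with 228. Ank, an ankyrin gene, had 110 and CaMKI, a calcium-dependent kinase, had 102. Ephrin, Crk and the synaptic vesicle gene unc-13 had none, and unc-13 had 2 peaks elsewhere in its span. Each of the 6 named first, from PlexA to myo, had a summit in both replicates.

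Genes with general cell functions on chromosome 4 had promoter peaks in 17 of 18 cases, 13 of them in the IDR list, beside the same shares of 81.2 and 46.2%. The strongest was gw, which encodes the GW182 protein of microRNA silencing, with 1354 (972 and 395 in replicates 1 and 4). It was followed by apolpp, the precursor of the lipid carrier lipophorin, with 616, Slip1 with 506, RpS3A, a protein of the small ribosomal subunit, with 478 (283 and 197), Rad23, a carrier of ubiquitinated proteins, with 447, Hcf with 396, the ATP synthase gene ATPsynbeta with 395 and the complex I gene ND-49 with 300. The peak at Hcf had no summit of replicate 1 within 100 bp and 115 in replicate 4. The only gene of the list with none was Taf3, which encodes a subunit of the general factor TFIID. Some promoters share a peak, as Cadps and Dyrk3 with 281, and Tdg and Pur-alpha with 119, since their TSSs lie close together. The peak given for ATPsynbeta was 425 bp from its TSS and 84 bp from that of CG11076. The peak given for Slip1 was 345 bp from its TSS and 152 bp from that of CG46466. The peak given for apolpp was 417 bp from one of its TSSs and lay within the span of Zyx too. The peak given above for Zyx, at chr4:1060784-1061187, covers the annotated start of apolpp at 1060969.

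In pericentric heterochromatin 15 of 21 listed genes had a promoter peak, and 9 of these were in the IDR list, beside 51.9 and 26.7% of all pericentric protein-coding genes. The counts take stnA and stnB, which have one span and one peak, as 2. stnA and stnB, which share a transcript and act in synaptic vesicle recycling, had the peak with 487. lt and RpL5 had 384 each, the RNA helicase gene Dbp80 had 342 (255 and 90.0), su(f), which acts in 3′ end formation of messenger RNA, had 324, vtd, the Rad21 subunit of cohesin, had 297, and RpL15 had 211 (163 and 71.8). Genes with no promoter peak were nvd and spok, which act in ecdysone synthesis, Snap25, a synaptic SNARE gene, nrm, Pzl and Gpb5. Of these, Snap25 had 4 peaks within its 225026 bp, nvd had 1 and nrm had 1, and the other 3 had none. Myo81F, 1965857 bp long by its annotated ends, had 2 peaks within it. Of 15 genes for heterochromatin proteins that were found in the annotation, none lay in the heterochromatic regions. These regions hold 211 protein-coding genes beside 10882 on the remaining arms, so the count is no result particular to these 15 genes.

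Transposable elements held 13.8% of the heterochromatic summits, 86 of 623, against 0.493% on the remaining arms. Set beside the share of sequence in elements, the summits were fewer than the elements' share on chromosome 4, 15.5% against 25.1%, and near to it in the pericentric regions, 12.1% (8.63 to 16.2%) against 15.4%. INE-1, a short non-autonomous element that is spread over chromosome 4, held 47 of the 86 summits, and 1360, a DNA transposon, held 17. HB and S held 5 each, and the other families 2 or fewer. The retrotransposons mdg1, gypsy12, F, Cr1a and jockey2 held 1 each, and 297, HeT-A and 412 held none.

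INE-1 elements carried more peaks per Mb than the region as a whole in the pericentric regions, with smaller differences on chromosome 4 and the remaining arms. There were 288 summits per Mb of INE-1 on chromosome 4 against 237 over all its sequence, 164 against 25.7 in the pericentric regions and 335 against 262 on the remaining arms. These densities rest on 28, 19 and 69 summits and have no intervals. Per Mb of unique words chromosome 4 had 282 peaks, close to its value in INE-1. For 1360 the densities in the same order of regions were 235, 30.9 and 170. Of the 47 INE-1 summits 24 were found in both replicates and 4 were in the IDR list. The strongest of them were the peak upstream of stnB, with 324 and 168 in replicates 1 and 4, and the peak in the intron of sv, with 305 and 139. Soft-masked sequence held 35.6% of heterochromatic summits and 29.3% of the others. It made up 39.1% of the heterochromatic regions and 17.5% of the remaining arms. On chromosome 4 it held 35.8% of summits (30.5 to 41.3%) and made up 28.1% of the sequence. In the pericentric regions these shares were 35.5% (30.2 to 41.1%) and 40.4%. The share of summits was thus above that of the sequence on chromosome 4 and on the remaining arms. In the pericentric regions the interval of the summits held the share of the sequence. Reads from repeats can be placed wrongly or dropped, and 89.6% of heterochromatic peaks, against 98.9% of the others, had unique 31-base words throughout their 101-base window.

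Summits had nearly the same base composition everywhere, while the sequence around them did not. Median G+C in the 101 bases at the summit was 30.7% on chromosome 4, 31.7% in the pericentric regions and 31.7% on the remaining arms. Chromosome 4 as a whole had 35.2% G+C, the pericentric regions 39.9% and the remaining arms 42.4%. At 400 bp to the left of the summit, mean G+C was 33.2% on chromosome 4, 36.8% in the pericentric regions and 43.1% on the remaining arms, against 30.8, 31.5 and 32.5% at the summit. The dip at the summit was therefore shallow on chromosome 4 and deep on the remaining arms.

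**Figure D5:**
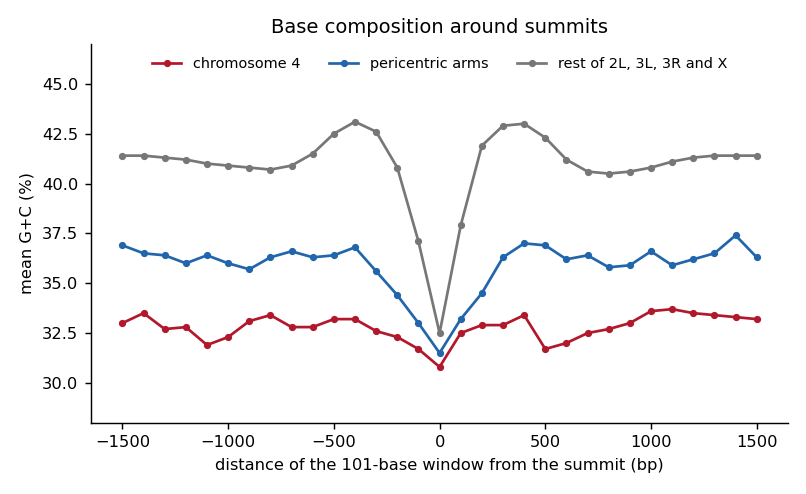
Mean G+C of windows of 101 bases against their distance from the summit (bp), for chromosome 4 (red), the pericentric arms (blue) and the remaining arms (grey). The curves meet near 31 to 33% at the summit and separate to 33.2, 36.8 and 43.1% at 400 bp to the left; the vertical axis does not start at 0.

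Words of A and T were more frequent at summits than beside them for 9 of 10 words on chromosome 4 and 9 of 10 in the pericentric regions. The 10 8-base words looked at were chosen for their excess at summits of the remaining arms, so the values there are no independent measure, and each was counted on either strand. Many of the words overlap in sequence, so they are not 10 separate observations, and their shares have no intervals. On chromosome 4 each was in 18 to 38 summit windows. The share at summits over the share in windows 500 bp to either side ran from 1.67 to 3.21 on the remaining arms, from 0.846 to 1.56 on chromosome 4 and from 0.851 to 2.87 in the pericentric regions. The first of the 10, AAATATAT, was in 6.96% of summit windows and 8.23% of flanks on chromosome 4, 6.19 and 4.23% in the pericentric regions and 7.38 and 2.33% on the remaining arms. The highest ratio in the pericentric regions was that of AAAAAAAT, with 17.3 and 6.03%, against 10.1 and 9.18% on chromosome 4 and 9.10 and 4.25% on the remaining arms. TATAAA was in 27.4% of heterochromatic summit windows and 23.4% of flanks, against 24.7 and 11% on the remaining arms. In all tiled windows of the heterochromatic regions it was in 14.4%.

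Sites known for the CP2 and Grainyhead family were few. The palindrome AACCGGTT was at 0 of 623 summits, which allows a share of up to 0.590% by the exact interval, and at 0.197% of summits on the remaining arms. Its core ACCGGT was at 2 heterochromatic summits, or 0.321%, and at 0.465% elsewhere. The short site CTGG was in 22.2% of heterochromatic summit windows (18.9 to 25.6%), in 32.3% of their flanks and in 41.4% of all tiled windows of the regions. On chromosome 4 alone these shares were 22.5, 30.1 and 33.2%, and in the pericentric regions 21.8, 34.5 and 42.3%. On the remaining arms it was in 27.9% of summit windows and 45.2% of flanks. A pair of CTGG words with 6 bases between them was at 0 heterochromatic summits and 0.148% of the others. These letters are matches in a 101-base window and not sites of binding.

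The word CGATA, known for BEAF-32 and the core of the DREF site, was in 17% of heterochromatic summit windows (14.1 to 20.2%), 13.9% of their flanks and 12.7% of all tiled windows, and in 11% of each on the remaining arms. The full DREF word TATCGATA, which holds CGATA, was at 7 heterochromatic summits, or 1.12%, and 1.28% of flanks, against 0.557 and 0.189% on the remaining arms. GAGAG, known for the GAGA factor, was in 8.67% of summit windows and 9.71% of flanks, against 8.35 and 13.1% on the remaining arms. GGTCACAC, the M1BP word, was at 0 of the 623 summits, which allows up to 0.590%, and at 0.357% on the remaining arms. CAGGTAG, the word of Zelda, was at 5, or 0.803% (0.261 to 1.86%), and in 1.04% of flanks, against 0.293 and 0.555% on the remaining arms. It was thus no more frequent at summits than beside them. The E-box CAGCTG was also at 5, or 0.803%, and in 1.28% of flanks, against 2.54 and 4.54% on the remaining arms. Each motif was searched on both strands.

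A few peaks lay inside coding sequence. Outside promoters, 9 heterochromatic summits were in coding exons, 8 on chromosome 4 and 1 at CG40298 on 3L. This was 2.53% of the peaks on chromosome 4 (1.10 to 4.93%), against 0.429% on the remaining arms. They lay in myo with 86.5, CG1674 with 54.4, pan with 50.1 and 42.7, CG32006 with 49.0, bt, the gene of the muscle protein projectin, with 44.0, sv with 43.6 and dpr7 with 41.8, and CG40298 had 62.5. None was in the IDR list, and CG32006 alone had a summit in both replicates. Also outside promoters, summits in 3′ UTRs made up 6.33% of the peaks on chromosome 4 (3.91 to 9.61%). They were 2.28% in the pericentric regions and 2.24% on the remaining arms.

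Neighbouring peaks were spaced alike. The median distance from a heterochromatic summit to the nearest other summit was 842 bp, with 57.6% within 1000 bp, against 835 bp and 59.9% on the remaining arms. On chromosome 4 the median was 791 bp and in the pericentric regions 976 bp, although the pericentric peaks were far fewer per Mb. Of the heterochromatic peaks 6 shared their interval with another peak that had its own summit. Along chromosome 4 the 100-kb bin with the most pooled peaks was the first, with 42, and the bin with the highest median signal was that from 400 to 500 kb, with 117 and 12 IDR peaks. The bin from 700 to 800 kb had 10 peaks and none in the IDR list.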

How the data were processed

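Gem-GFP ChIP-seq peaks of 2 biological replicates of whole embryos were analysed. The deposited signal value of each peak is the authors' own, on a scale that is not stated. The deposited −log10 q-value reached a ceiling of 4.29, so peaks were ranked by signal. Per the listings deposited with the samples, peaks were called on each replicate and on both together with a control alignment as further input, and the IDR list was made from those lists on dm6. Aligner, caller and IDR threshold are not given in the sources used here, and the read depth of each sample is unknown.

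From these lists, summits (start plus offset, 1-based as printed) were assigned to regions, matched between lists within 100 bp, and annotated with Ensembl release 115 gene models (BDGP 6.54, transposable elements kept apart) and the release 6 RefSeq sequence, whose arm lengths hold every peak. Densities are per Mb outside assembly gaps. Motifs were searched within 50 bp of summits, on both strands. Unique 31-base words were counted over the whole assembly. Shares have exact Clopper-Pearson 95% intervals for counting error. With 1 group and peaks that are not replicates, no test was run. Members, gene lists and motifs were chosen with earlier results of these data known. Named are the 5 strongest peaks per region found in both replicates, up to 8 promoter-bound and up to 4 unbound genes per list, and genes behind counts of 5 or fewer. Some further peaks were named after their values were seen: the peaks in INE-1, at the limits, in coding exons, in pan and at Alg-2. Of the listed gene names, 2 matched no annotated gene, one of them a second name of egg, and pasha and Alh lay on the remaining arms, so neither was counted. Alternatives were the IDR list, each replicate alone, chromosome 4 or the pericentric arms alone, the 15000 strongest peaks, other windows and other repeat annotations. The scripts were tested on simulated peaks and sequence. Python 3.11.15, numpy 2.4.6, pandas 2.3.3 and scipy 1.17.1 were used.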

Additional observations from a re-analysis of the deposited data

How the results depend on the processing

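Values here are ratios to the remaining arms, or differences from them in percentage points, except for CTGG, where summits are set against their flanks. The lower peak density of all heterochromatic regions, 0.179 of the remaining arms, was 0.906 for chromosome 4 alone, 0.0982 for the pericentric arms alone, 0.0941 in the IDR list and, chosen after seeing the data, 0.374 per Mb of unique 31-base words and 0.905 per TSS. Chromosome 4 alone turned direction, to 1.09 without replicate 1, 1.01 per Mb of unique words and 1.26 per TSS, and was 0.504 in the IDR list. The median signal, 0.659, was 0.731 in the IDR list and 0.764 by rank. The share found in both replicates, lower by 15.1 points (−15.1), was −19.1 in the pericentric arms and −3.34 among the 15000 strongest peaks. The promoter share, higher by 11.6 points, was 33.0 in the IDR list, 29.1 among the 15000 strongest, 9.81 at 250 bp and 16 at 1000 bp. The share of TSSs with a peak, higher by 13.3 points, was 26.1 on chromosome 4, 5.92 in the pericentric arms, 6.24 among the 15000 strongest and 0.502 in the IDR list. The difference between summit and flank for CTGG, −10.1 points, was −7.59 on chromosome 4, −12.7 in the pericentric arms, −15.7 in the IDR list, −13.5 among the 15000 strongest, −6.10 within 25 bp and −9.23 within 100 bp. The share in repeats, higher by 12.5 points, was 7.83 in the IDR list, 8.06 among the 15000 strongest and 6.29 for soft-masked sequence alone. These differences take no account of the repeat content of the regions, of which 39.1% was soft-masked, against 17.5% of the remaining arms. The cause was not tested.

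With each replicate alone, the values ran from 0.176 to 0.184 for density, 0.640 to 0.699 for signal, 9.91 to 12.2 for promoters, 10.5 to 14.3 for TSSs, −9.51 to −9.36 for CTGG and 12.7 to 16.6 for repeats. On chromosome 4 the density ran from 0.866 to 1.09. Of 65 alternative values 3 turned direction, all of them the density of chromosome 4. The 65 do not cover every contrast given above. The ratio of promoter to distal signal in heterochromatin, 1.77 in the pooled list, was 0.845 in the IDR list. The pericentric share of TSSs with a peak was 40.4% against 34.5% on the remaining arms. In the IDR list it was 19.7% (15.5 to 24.5%) against 21.4%. No paired analysis was possible because there is 1 group. Unknown depth, an unstated signal scale, and repeats in which reads cannot be placed limit all of these values.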
